A study of Mus musculus with 10 samples.

Results

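The serotonin receptors measured here were the products of 10 genes (Htr1a, Htr1b, Htr1d, Htr1f, Htr2a, Htr2c, Htr3a, Htr4, Htr5a and Htr7), picked by symbol from the 18216 genes of the deposited expression table. All 10 were present. The samples were prefrontal cortex from male C57BL/6N mice at postnatal day 10, with 1 poly-A RNA-seq library per mouse. Arid1b+/- heterozygotes (HT, n = 5) carried a protein-truncating allele made by CRISPR/Cas9 editing at the start of exon 5 of Arid1b, present in the germline and so in every cell, and their wild-type counterparts (WT, n = 5) came from crosses of heterozygous males with WT females. The question was whether receptor transcripts differ between the genotypes at an age when serotonin acts on the developing cortex. Values are normalised values, that is estimated fragments per gene divided by a size factor for each library, so they compare one gene between mice but not genes of different length with each other.

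Serotonin reaches the cortex in axons from the raphe nuclei of the brainstem and acts there on receptors of several families. The Htr1 and Htr5 receptors couple to Gi/o proteins and lower cyclic AMP, the Htr2 receptors couple to Gq and activate phospholipase C, Htr4, Htr6 and Htr7 couple to Gs and raise cyclic AMP, and Htr3a encodes a subunit of a cation channel opened by serotonin. In the cortex Htr2a is best known from pyramidal neurons and Htr3a from interneurons born in the caudal ganglionic eminence (CGE).

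Arid1b itself, which encodes a DNA-binding subunit of the BAF chromatin remodelling complex, was at 1938, 1767, 1987, 1849 and 1929 in HT mice 1 to 5 and at 3018, 2807, 2775, 2949 and 2662 in WT mice 1 to 5. The groups did not overlap, and the level in HT mice was 66.7% of that in WT mice (95% interval 62.0 to 71.6%, log2 difference -0.59 ± 0.05 SE, limma adjusted p = 1.00e-04). With genes below a mean of 10 left out, 16781 were tested, of which 3 passed an adjusted p of 0.05, or 0.0179%. At an unadjusted p of 0.05 it was 1549 genes, or 9.23%, and the ranges of the genotypes were apart for 272 genes, or 1.62%. Pairs of libraries correlated at 0.982 to 0.989 on the log2 scale. The 5 cortical glutamatergic markers used in the score were all detected, and HT mouse 2 stood apart by a low score of these markers. Without that library the log2 difference moved by more than 1.5 times for 6 of the 10 receptors. It went from -0.10 to -0.03 for Htr1b, from -0.12 to -0.07 for Htr5a, from -0.15 to -0.25 for Htr3a and from 0.05 to 0.15 for Htr4, and it changed sign for Htr2a and Htr7 (0.04 and 0.02 without it), while no receptor passed with or without it.

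None of the 10 receptors passed the adjusted threshold between the genotypes, and none had an unadjusted p under 0.05 or values that did not overlap. All 10 had passed the filter at a mean of 10. In HT mice 4 receptors were higher on average and 6 were lower, and the median log2 difference was -0.06, beside -0.0035 over all genes tested. The smallest adjusted p among the receptors was 0.574, for Htr1d. What the data give is therefore a bound on each difference, and these bounds were narrow for Htr1a, Htr5a, Htr7 and Htr1b and wide for Htr1d and Htr4. In bulk tissue a lower transcript level in each cell and fewer cells that carry the transcript cannot be told apart.

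**Figure D1:**
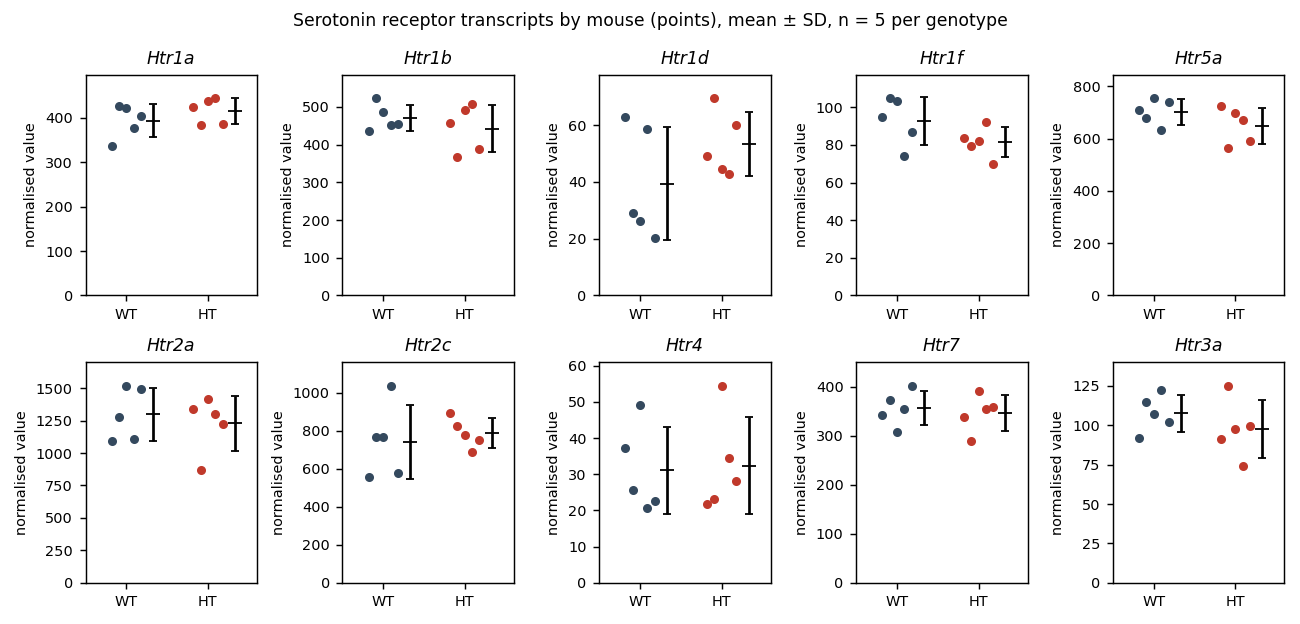
Normalised value (vertical axis, from 0) of each receptor in each WT (dark) and HT (red) mouse, with the mean and SD of 5 mice beside the points. The genotypes overlap in every panel, and the WT values of Htr1d split into 2 mice at 58.8 and 63.0 and 3 mice at 20.2 to 29.0.

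Among the Gi/o-coupled receptors, Htr1a, the somatodendritic autoreceptor of raphe neurons and a postsynaptic receptor of cortical neurons, was at 425, 384, 439, 445 and 387 in HT mice 1 to 5 and at 338, 426, 423, 377 and 405 in WT mice 1 to 5. WT mice 1 and 4 lay below all HT mice and the other 3 lay within their range. On average HT mice had 106% of the WT level (95% interval 93.8 to 119%, log2 difference 0.08 ± 0.08 SE, limma adjusted p = 0.745). Without WT mouse 1 the log2 difference was 0.03. Htr1b, a presynaptic receptor that limits transmitter release, was at 457, 368, 492, 506 and 388 in HT mice and at 435, 523, 487, 452 and 455 in WT mice, given in the same order here and below. HT mice 2 and 5 had the lowest values and the other 8 mice overlapped. The HT average was 93.5% of WT (95% interval 81.1 to 108%, limma adjusted p = 0.739). Part of the Htr1b exon lies under a transcript of the opposite strand, D430036J16Rik, and 18.2% of the stretches of 31 bases in Htr1b, read on both strands, also occur in that or another gene. D430036J16Rik itself averaged 125 in both genotypes. For the other 9 receptors the shared stretches came to at most 0.281%.

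Htr1d, also a presynaptic receptor, was the most variable of the 10 between WT mice. It was at 49.1, 69.5, 44.5, 43.0 and 60.0 in HT mice and at 63.0, 29.0, 26.3, 58.8 and 20.2 in WT mice. WT mice 2, 3 and 5 lay below every HT mouse, while WT mice 1 and 4 lay within the HT range, so that the coefficient of variation was 50.4% in WT and 21.2% in HT. The HT mean of 53.2 ± 11.3 against a WT mean of 39.5 ± 19.9 (SD, n = 5 each) gave a log2 difference of 0.54 ± 0.30 SE with a 95% interval from -0.10 to 1.18 (limma unadjusted p = 0.0909, adjusted p = 0.574). The exact permutation test of the 252 assignments gave a 2-sided p of 0.151, where 0.00794 is the smallest the design allows. This was the largest difference of the 10 receptors on the log2 scale and did not exceed the spread between mice. Without WT mouse 5 it was 0.34.

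Htr1f, a receptor of the same family found in cortical and thalamic neurons, was at 83.9, 79.6, 82.0, 92.1 and 69.8 in HT mice and at 94.8, 105, 103, 74.3 and 86.6 in WT mice. WT mice 1, 2 and 3 were above all HT mice and WT mouse 4 was below all HT mice but mouse 5. Its level in HT mice was 88.3% of WT (95% interval 72.5 to 108%, limma adjusted p = 0.661). Htr5a, an inhibitory receptor found mainly in brain, was at 726, 564, 696, 671 and 592 in HT mice and at 711, 678, 755, 632 and 742 in WT mice. HT mice 2 and 5 were the lowest of the 10, as for Htr1b. Relative to WT, the HT level was 92.1% (95% interval 81.9 to 104%, limma adjusted p = 0.627).

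Of the Gq-coupled receptors, Htr2a, the receptor on which psychedelic drugs act, was at 1339, 869.5, 1417, 1301 and 1222 in HT mice and at 1094, 1281, 1521, 1105 and 1493 in WT mice. HT mouse 2 was the lowest of all mice, and the other 4 HT mice lay inside the WT range. The HT level was 94.3% of WT (95% interval 77.7 to 114%, log2 difference -0.08 ± 0.13 SE, limma adjusted p = 0.845). Without HT mouse 2 the log2 difference was 0.04 ± 0.10 SE (limma adjusted p = 0.955), so its sign rested on that library.

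Htr2c, an X-linked gene whose transcript is edited and alternatively spliced, was at 894, 823, 776, 685 and 749 in HT mice and at 557, 768, 766, 1037 and 575 in WT mice. The 5 HT mice fell between the extremes of the WT group, with a coefficient of variation of 9.98% in HT and 26.2% in WT. HT mice had 108% of the WT level (95% interval 87.7 to 134%, limma adjusted p = 0.794). Its log2 difference of 0.12 became 0.02 without WT mouse 1, 0.03 without WT mouse 5 and 0.25 without WT mouse 4. Adar, Adarb1 and Adarb2, genes of the family of adenosine deaminases acting on RNA, had log2 differences of -0.06, -0.02 and -0.06. None passed (0 of 3), and the smallest limma adjusted p among them was 0.686, for Adar.

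Of the Gs-coupled receptors, Htr4 was at 21.8, 23.0, 54.5, 34.4 and 28.0 in HT mice and at 37.2, 25.6, 49.2, 20.8 and 22.6 in WT mice. One mouse of each genotype, number 3 in both, had a value near 50 and the rest lay between 20.8 and 37.2. The interval was the second widest after that of Htr1d, with the HT level at 104% of WT (95% interval 66.9 to 161%, limma adjusted p = 0.963). The log2 difference of Htr4, 0.05, changed sign without HT mouse 3 (-0.15), without WT mouse 4 (-0.07) and without WT mouse 5 (-0.04). Htr7, a receptor of forebrain neurons, was at 339, 289.6, 391, 354 and 359 in HT mice and at 343, 372, 308, 354 and 402 in WT mice. The lowest value was again that of HT mouse 2, and the genotypes otherwise covered the same range. Its HT level was 97.3% of WT (95% interval 84.6 to 112%, limma adjusted p = 0.903).

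The channel subunit gene Htr3a was at 91.0, 125, 97.4, 74.0 and 99.5 in HT mice and at 91.8, 114, 107, 123 and 102 in WT mice. HT mouse 2 and WT mouse 4 had the highest values and HT mouse 4 the lowest. On average it was at 89.8% of WT in HT mice (95% interval 72.5 to 111%, limma adjusted p = 0.725). HT mouse 2 and WT mouse 4 were also the mice with the highest score of CGE interneuron markers (Vip, Calb2, Npas1, Prox1, Nr2f2, Sp8, Cxcl14, Ndnf and Adarb2, without Htr3a), at 0.72 and 0.74, against -0.48 to -0.04 in the other 8. A score is the mean of the z-scored log2 values of the markers. All 9 CGE markers passed the filter, 4 of 9 were higher in HT, and their summed value ran from 6206 to 8750 in HT and from 6269 to 7989 in WT mice. The same mice had the highest olfactory bulb marker scores (Tbx21, Doc2g, Cdhr1 and Th), at 1.48 and 1.40, with summed values of 562 to 2775 in HT and 527 to 2874 in WT mice. In HT, 3 of 4 marker means were higher, and 4 of 4 log2 differences were above 0. Within the other 8 mice Htr3a ran against the CGE score, without passing (r = -0.50, exact permutation p = 0.213, adjusted p = 0.593, rho = -0.71, exact permutation p = 0.0576, adjusted p = 0.603, n = 8, and r = -0.57 within genotypes).

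Of the 4 remaining receptor genes of the mouse, Htr2b and Htr3b were not analysed here. Htr5b was at 12.7 to 24.9 in HT mice and at 16.2 to 31.6 in WT mice with means of 19.7 ± 4.52 and 25.5 ± 5.79 (SD, n = 5), a log2 difference of -0.36 ± 0.24 SE (limma adjusted p = 0.633). Htr6, coupled to Gs, was at 80.7 to 108 with a median of 103 in HT mice and at 71.7 to 99.2 with a median of 90.7 in WT mice, a log2 difference of 0.14 ± 0.13 SE (limma adjusted p = 0.725). Both pairs of ranges overlapped.

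**Figure D2:**
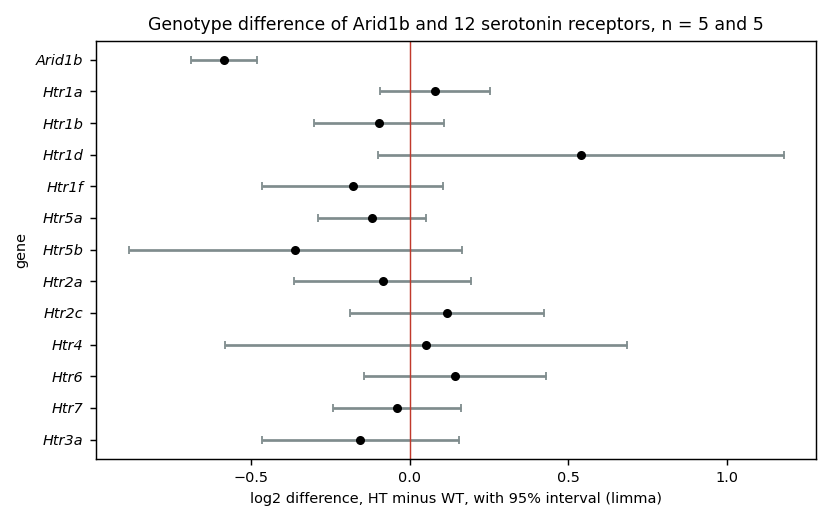
Log2 difference between HT and WT mice (horizontal axis, HT minus WT, limma on log2 of the value plus 1) with its 95% interval for Arid1b and 12 serotonin receptors, n = 5 and 5. The Arid1b interval lies between -0.69 and -0.48, and the interval of every receptor includes 0.

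To compare receptors with each other, each value was divided by the length of the gene's merged exons in kilobases, over the 10 mice of both genotypes. Per kilobase, Htr2a was highest at 226 ± 35.7 (SD, n = 10 mice), which is above 65.0% of the genes tested. Htr5a followed at 126 ± 11.8 and was below Htr2a in 10 of 10 mice (exact sign-flip permutation test over mice, 2-sided p = 0.00195, adjusted p = 0.00537 over 11 neighbouring pairs). Htr7 was next at 103 ± 10.1 and was below Htr5a in 10 of 10 mice, with the same exact p, the smallest that 10 mice allow.

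Htr7, Htr1b, Htr1a and Htr2c formed a run whose neighbours did not differ beyond their spread, at 103, 96.6 ± 10.5, 90.3 ± 7.41 and 81.8 ± 15.2 per kilobase (adjusted exact sign-flip p = 0.105, 0.0725 and 0.110 for the successive pairs). Below them came Htr3a at 49.2 ± 7.46, lower than Htr2c in 10 of 10 mice (adjusted exact p = 0.00537). Htr3a, Htr6 (39.8 ± 5.06) and Htr1f (33.8 ± 4.50) again did not separate from their neighbours (adjusted exact p = 0.0609 and 0.0725).

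The lowest levels were those of Htr1d at 14.5 ± 5.27 per kilobase, Htr5b at 11.7 ± 2.99 and Htr4 at 6.46 ± 2.44. With merged exons, Htr1d was below Htr1f in 10 of 10 mice (adjusted exact p = 0.00537) and did not separate from Htr5b (adjusted exact p = 0.381). At this length Htr5b was above Htr4 in 9 of 10 mice (adjusted exact p = 0.0301). Per kilobase, Htr4 exceeded 6.09% of the genes tested.

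The place of Htr2c rested on which transcript length was used. Its merged exons span 9.33 kilobases over 7 annotated transcripts, of which the longest has 4883 bases and the median 3057. With the longest transcript it ranked 2 of 12 at 156 per kilobase, and with the median transcript it ranked 1 of 12 at 249.6, above Htr2a at 226. Htr1b moved from rank 4 to rank 3 with the median transcript (152 per kilobase), and Htr4 from rank 12 to rank 10 (23.9). Htr4 was then above Htr5b (11.7), so the order of this pair reversed. The sign-flip tests compare mice at the merged-exon length and do not cover the choice of length. Htr2a, Htr5a, Htr1a, Htr1f and Htr5b kept the same level under all 3 lengths, since each has 1 annotated transcript.

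**Figure D3:**
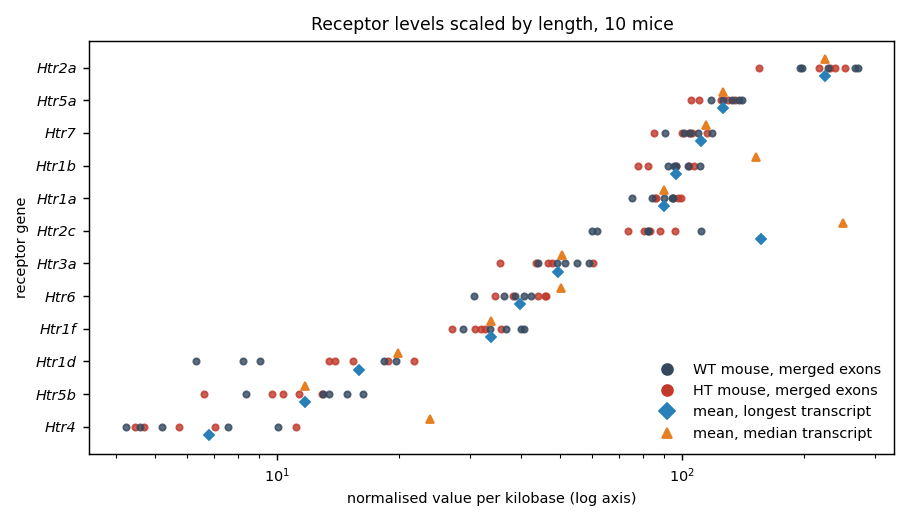
Normalised value per kilobase (horizontal log axis) of 12 receptors, with 1 point per mouse for merged-exon length (dark WT, red HT) and the mean over 10 mice for the longest (diamond) and median (triangle) transcript. Htr2a leads at 226 with merged exons, and Htr2c moves from 81.8 to 156 and 249.6 with the other lengths.

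Summed per kilobase over the 12 receptors, Gi/o-coupled receptors made up 42.2 ± 1.62% of the receptor level in HT mice and 42.7 ± 1.65% in WT mice (SD, n = 5 each). The Gq-coupled pair made up 34.9 ± 1.78% in HT and 34.8 ± 2.32% in WT mice. The Gs-coupled receptors came to 17.3 ± 0.90% and 16.7 ± 1.62%, and Htr3a to 5.49% and 5.80%. The ranges of the genotypes overlapped for all 4 classes. With the longest transcript the Gi/o and Gq shares were 38.9% and 39.6% over the 10 mice, and with the median transcript they were 37.8% and 41.3%, so that the order of these classes rested on the length used.

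Receptors were also set against each other over the 10 mice. None of the 45 pairs passed adjustment. By Pearson r the strongest were Htr2a with Htr5a (Pearson r = 0.79, Spearman rho = 0.77, n = 10 mice) and Htr2a with Htr1d (r = -0.78, rho = -0.87). The permutation p-values were 0.00638 and 0.00592 for r (adjusted p = 0.144 for both over the 45 pairs) and 0.0126 and 0.00223 for rho (adjusted p = 0.188 and 0.0698). Within genotypes r was 0.81 and -0.81, and without HT mouse 2 it was 0.61 and -0.80. Without the 2 mice farthest from the median of the first receptor, r was 0.84 for Htr2a with Htr5a and -0.67 for Htr1d with Htr2a. By rank, Htr1a with Htr1b came after Htr1d with Htr2a (rho = 0.85, permutation p = 0.0031, adjusted p = 0.0698), with r = 0.62 (permutation p = 0.0557, adjusted p = 0.266), 0.83 within genotypes and 0.91 without WT mice 1 and 4.

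The start regions of Htr2a, Htr5a and Htr1d, the members of the pairs with the largest r in size, are shown each with 250 bases before and 50 after the RefSeq start (GRCm38.p6, 5′ to 3′ in the direction of the gene, all on the plus strand). They lie at chr14:74640624-74640923, chr5:27841697-27841996 and chr4:136423274-136423573, the last being the first of 2 starts given for Htr1d. Capitals mark the motifs searched on both strands.
Htr2a: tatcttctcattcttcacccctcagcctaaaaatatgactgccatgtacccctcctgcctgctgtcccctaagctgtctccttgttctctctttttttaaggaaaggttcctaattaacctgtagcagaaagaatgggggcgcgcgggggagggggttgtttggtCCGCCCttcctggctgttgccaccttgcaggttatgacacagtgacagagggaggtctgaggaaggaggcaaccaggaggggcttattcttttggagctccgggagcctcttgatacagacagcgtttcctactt
Htr5a: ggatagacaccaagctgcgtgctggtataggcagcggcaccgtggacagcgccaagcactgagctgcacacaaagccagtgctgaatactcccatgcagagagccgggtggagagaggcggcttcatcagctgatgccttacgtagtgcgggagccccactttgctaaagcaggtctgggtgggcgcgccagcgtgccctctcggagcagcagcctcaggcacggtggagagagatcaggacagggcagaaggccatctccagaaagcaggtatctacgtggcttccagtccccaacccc
Htr1d: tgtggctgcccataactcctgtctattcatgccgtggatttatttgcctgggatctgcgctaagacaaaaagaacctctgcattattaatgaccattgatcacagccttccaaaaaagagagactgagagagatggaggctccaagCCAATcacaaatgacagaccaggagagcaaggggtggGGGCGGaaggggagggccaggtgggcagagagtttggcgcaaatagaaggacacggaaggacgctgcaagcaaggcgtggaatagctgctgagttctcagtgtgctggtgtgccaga
The motifs were the TATA box (TATAAA), the GC box (GGGCGG), the CCAAT box (CCAAT), the NeuroD E-box (CAGATG) and the full cyclic AMP response element (TGACGTCA), none of which overlapped in these windows. Htr2a held a GC box on the opposite strand, Htr1d held a CCAAT box and a GC box, and Htr5a held none of the 5. RefSeq starts were given for 8 of the 10 receptors (9 starts), and not for Htr3a or Htr4. Over these 9 windows a GC box was found in 55.6% against 35.7% of 32851 mouse promoter windows, a CCAAT box in 33.3% against 37.4%, and no TATA box, NeuroD E-box or cyclic AMP element was found, against 13.6%, 17.2% and 1.79%. The G and C content ran from 52.0% for Htr2a and the first Htr1d start to 81.0% for Htr7, with a median of 53.3% against 52.7% over all windows. A match of letters is a description and not a bound site.

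The design set 10 receptors against 5 marker scores. The striatal score fell into separate clusters of 3 and 7 mice and the CGE score into clusters of 8 and 2, so relations with these 2 scores were computed only within the clusters of 7 and 8 mice, by an exact permutation test. The low striatal scores were those of HT mouse 5 and WT mice 3 and 5 (-1.26, -1.45 and -1.39), against 0.25 to 1.09 in the other 7. All 10 striatal markers were higher on average in HT, with a summed value of 7294 to 22807 in HT and 6255 to 17921 in WT mice. With this score as a covariate, the log2 difference between genotypes went from -0.08 to -0.04 for Htr2a and from 0.12 to 0.07 for Htr2c. It went from 0.54 to 0.42 for Htr1d and from -0.10 to -0.13 for Htr1b, and no receptor passed. None of the 50 relations passed an adjusted p of 0.05. The strongest was Htr5a with the astrocyte score over 10 mice (r = -0.85, permutation p = 0.00379, adjusted p = 0.19, Spearman rho = -0.72, permutation p = 0.0231, adjusted p = 0.587). Without HT mice 2 and 5, which had the highest astrocyte scores (1.45 and 1.48), r was -0.43. One library also decided the call, since without WT mouse 4 (low Htr5a with a low astrocyte score of -0.66) r was -0.98 over 9 mice (exact permutation p = 1.1e-05, adjusted p = 0.000551, rho = -0.97, exact permutation p = 0.000165, adjusted p = 0.00827), and -0.94 with HT mice 2 and 5 left out as well. This was the only omission of a single mouse that gave a call, and its p was not adjusted over the omissions. In HT mouse 5 the astrocyte marker Gfap was at 13936, against 3572 to 5007 in the other HT mice. All 8 astrocyte markers passed the filter and all were higher on average in HT, with a summed value of 146597 to 186521 in HT and 135142 to 158635 in WT mice. The microglia markers moved with them, with 6 of 6 higher on average in HT, the highest scores again in HT mice 2 and 5 (1.83 and 1.07), and a summed value of 9402 to 13105 in HT and 9162 to 10605 in WT mice.

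The cortical glutamatergic score (Slc17a7, Neurod2, Neurod6, Emx1 and Tbr1) and the olfactory bulb score were added after the values were seen, as 20 further relations. Their p-values were adjusted over these 20 alone, apart from the 50 relations of the design, so the adjustment does not cover the whole search. Over all 10 mice Htr2a rose with the glutamatergic score (r = 0.90, permutation p = 0.00088, adjusted p = 0.0176, Spearman rho = 0.81, permutation p = 0.00752, adjusted p = 0.0752, n = 10), and so did Htr5a (r = 0.83, permutation p = 0.00212, adjusted p = 0.0212, rho = 0.82, permutation p = 0.00599, adjusted p = 0.0752). The rank correlations did not pass. Without HT mouse 2 and WT mouse 4, the 2 farthest from the median score, r was 0.64 for Htr2a and 0.63 for Htr5a. Both calls rested on HT mouse 2. Without that mouse alone, Htr2a had r = 0.78 (exact permutation p = 0.0123, adjusted p = 0.247, rho = 0.77, exact permutation p = 0.0214, adjusted p = 0.428, n = 9). Htr5a then had r = 0.65 (exact permutation p = 0.059, adjusted p = 0.393, rho = 0.68, exact permutation p = 0.0503, adjusted p = 0.503, n = 9). Within genotypes, over all 10 mice, r was 0.90 and 0.83.

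Htr1d ran the other way (r = -0.65, permutation p = 0.0336, adjusted p = 0.162, rho = -0.72, permutation p = 0.0238, adjusted p = 0.159), without passing, and r was -0.59 without HT mouse 2 and WT mouse 4. HT mouse 2 had a glutamatergic score of -1.85 and the other 9 mice lay between -0.61 and 0.83. None of the 5 markers was at 0, 1 of 5 was higher on average in HT, and their summed value was 46639.7 to 62696 in HT and 52022 to 64565 in WT mice. With this score as a covariate, the log2 difference between genotypes was 0.02 ± 0.07 SE for Htr2a (limma adjusted p = 0.964) and -0.07 for Htr5a. It shrank from 0.54 to 0.39 for Htr1d, from -0.10 to -0.06 for Htr1b and from -0.04 to -1.2e-06 for Htr7. It grew from -0.15 to -0.22 for Htr3a, from 0.05 to 0.11 for Htr4 and from 0.08 to 0.11 for Htr1a. No relation with the olfactory bulb score passed (smallest adjusted p = 0.162 for r and 0.2701 for rho), with Htr2c at r = 0.64 and Htr3a at r = 0.62 (rho = 0.58 and 0.44, permutation p = 0.0468 and 0.0566 for r and 0.0891 and 0.202 for rho, adjusted p = 0.162 for both r). With the olfactory bulb score as a covariate, the log2 difference between genotypes went from 0.12 to 0.07 for Htr2c and from -0.15 to -0.20 for Htr3a.

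**Figure D4:**
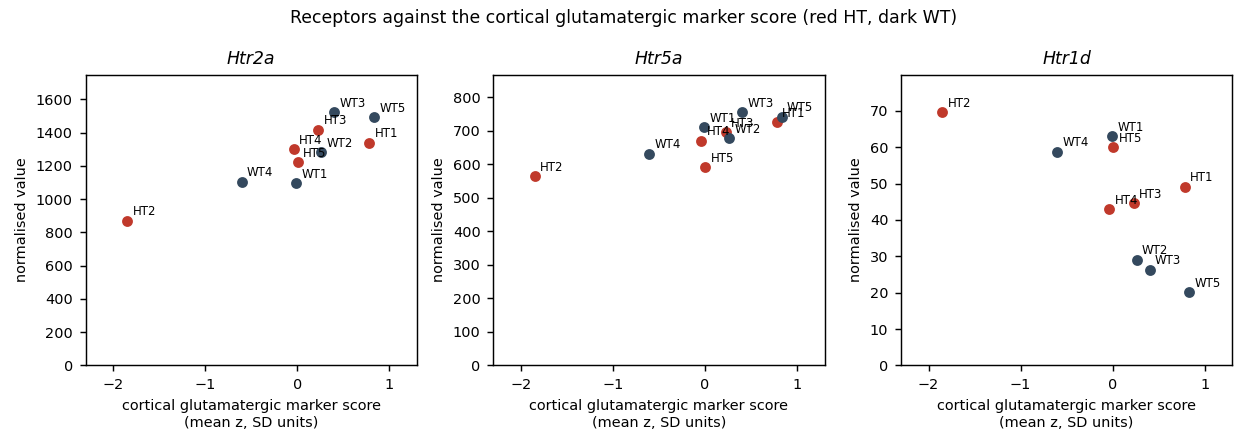
Normalised value of Htr2a, Htr5a and Htr1d (vertical axes, from 0) against the cortical glutamatergic marker score (horizontal axis, mean z-score of 5 markers) in 5 HT (red) and 5 WT (dark) mice, each labelled. HT mouse 2 lies far left at -1.85, with the lowest Htr2a (869.5) and Htr5a (564) and the highest Htr1d (69.5).

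The genes most like each receptor were taken as the 2 with the highest Pearson r of log2 values over the 10 mice among 16780 others, with no test. For Htr1a these were D430013B06Rik (r = 0.89) and Trip4 (0.88), for Htr1b Selenoi (0.97) and Depdc5 (0.96), and for Htr1d 2410022M11Rik and Tgif2 (0.95 each). Htr1f was nearest to Gm47155 (0.96) and Hexim1 (0.95), and Htr5a to Wnt9a and Atp6v1c1 (0.97 each). For the Gq-coupled receptors the nearest genes were Rnf11 and Rwdd2a (0.97 each) for Htr2a and Cdc45 and Exosc9 (0.92 each) for Htr2c. Htr4 was nearest to Zfp143 (0.92) and Adarb1 (0.90), Htr7 to Gm15581 (0.90) and Rpap3 (0.89), and Htr3a to Pex11a (0.92) and Umodl1 (0.91). With 10 mice and so many genes, values of this size are the top of a long ranking.

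The genes that make, carry, degrade and relay serotonin were read from lists holding 64 genes, all of which passed the filter. None passed the adjusted threshold. At an unadjusted p of 0.05, 5 were higher and 6 lower in HT mice, which is 11 of 64 beside 9.23% of all genes, and the median log2 difference of the lists was -0.05.

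For the making, transport and breakdown of serotonin, 2 of 15 genes were higher and 2 lower at an unadjusted p of 0.05, beside 9.23% of all genes in either direction. Spr, which encodes sepiapterin reductase and helps make the cofactor of tryptophan hydroxylase, was at 365, 359.8, 374, 329.7 and 372 in HT mice and at 474, 456, 421, 392.3 and 427 in WT mice. Every HT mouse was below every WT mouse, the log2 difference was -0.27 ± 0.07 SE, and the limma unadjusted p was 0.00217 with an adjusted p of 0.414. Ranges apart in either direction were found for 1 of the 64 listed genes, beside 1.62% of all genes tested. Slc22a3, a low-affinity organic cation transporter, and Aldh2, an aldehyde dehydrogenase, had log2 differences of 0.26 and 0.21, and Slc29a4, the plasma membrane monoamine transporter, of -0.16 (limma adjusted p = 0.508, 0.482 and 0.523).

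Transcripts of serotonergic neurons, whose cell bodies lie outside the cortex, were low in every mouse. Tph2, the neuronal tryptophan hydroxylase, ranged from 27.9 to 53.5 over the 10 mice, Slc6a4, the serotonin transporter, from 6.21 to 15.7, and Slc18a2, the vesicular monoamine transporter, from 41.8 to 108. Their log2 differences were -0.05, 0.05 and 0.08 (limma adjusted p = 0.938, 0.969 and 0.923).

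Among the 9 G protein alpha subunits, Gnaq, the partner of Htr2a and Htr2c, had a log2 difference of -0.14 ± 0.06 SE (limma unadjusted p = 0.0365, adjusted p = 0.513), and 7 of 9 were lower on average in HT mice, beside 51.2% of all genes tested. HT mouse 2 was the lowest of the 10 mice for 5 of the 9, Gnaq included, and without it 6 of 9 were lower and Gnaq was at -0.09 (limma unadjusted p = 0.0732). Of 17 genes of cyclic AMP signalling and G protein-gated potassium channels, 13 were lower on average and none reached an unadjusted p of 0.05. HT mouse 2 was the lowest of all mice for 11 of the 17, and without it 10 were lower. The smallest was that of Adcy3, an adenylyl cyclase (log2 difference -0.13, limma unadjusted p = 0.0513, adjusted p = 0.542).

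Of 7 genes of the phospholipase C branch, 4 reached an unadjusted p of 0.05, of which 2 were higher and 2 lower, beside 9.23% of all genes. Plcb3, a phospholipase C that Gq activates, was at 605, 877, 615, 720.0 and 876 in HT mice and at 559, 601, 562, 619 and 537 in WT mice. HT mice 2 and 5 had the highest values, HT mice 1 and 3 lay inside the WT range, and the log2 difference was 0.34 ± 0.11 SE (limma unadjusted p = 0.00594, adjusted p = 0.466). Plcb4 was at a log2 difference of 0.12, and the protein kinase C genes Prkca and Prkcb at -0.16 and -0.13 (limma adjusted p = 0.525, 0.473 and 0.507). HT mouse 2 was the lowest of all mice for Prkca and Prkcb, which were at -0.13 and -0.11 without it. HT mice 2 and 5 also had the highest astrocyte and microglia scores and the highest values of Aldh2 (1419 and 1309.8) and Mpdz (1740.4 and 1746), and the part of either cell type in Plcb3, Aldh2 or Mpdz was not tested.

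Of 13 genes that traffic, desensitise or transcribe the receptors, 1 was lower and 1 higher at an unadjusted p of 0.05, beside 9.23% of all genes in either direction. S100a10, which encodes p11 and brings Htr1b and Htr4 to the cell surface, was at 681, 571, 638, 621 and 686 in HT mice and at 682, 717, 831, 834 and 785 in WT mice. Only HT mouse 5 exceeded a WT mouse, the lowest one, and the log2 difference was -0.27 ± 0.07 SE (limma unadjusted p = 0.00301, adjusted p = 0.414). Mpdz, a scaffold that binds the tail of Htr2c, was at a log2 difference of 0.17 ± 0.05 SE (limma unadjusted p = 0.00562, adjusted p = 0.456).

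**Figure D5:**
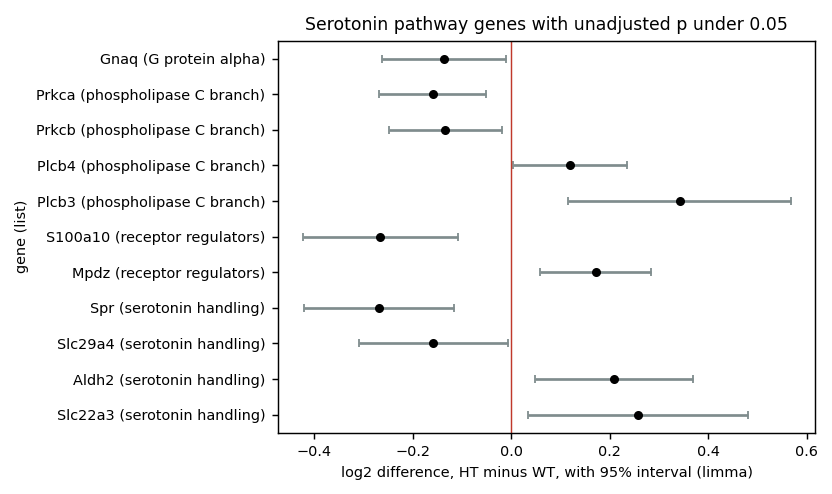
Log2 difference between HT and WT mice (horizontal axis, HT minus WT) with its 95% interval from limma for the 11 genes of the serotonin pathway lists at an unadjusted p under 0.05, with the list of each gene in brackets. None passed adjustment over all genes (smallest adjusted p = 0.414).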

How the data were processed

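Prefrontal cortex RNA of 10 male mice, 5 HT and 5 WT, was made into stranded poly-A libraries and sequenced in paired ends. The authors estimated transcript abundance with Salmon (1.1.0 in the submitters' processing notes) on GRCm38, summed it to genes and divided it by DESeq2 (1.30.1) size factors. The deposited values are thus a normalised signal per gene and not whole reads. Below 12, 7.18 to 25.7% of values were whole multiples of a step (tolerance 0.02 steps), so reads and depth were not recovered and no count test was run. Whether strand was used in counting is not given in the sources used here. Of 18216 gene identifiers, 18205 matched GENCODE M21. Genes with a mean of at least 10 (16781) were tested with limma (3.58.1, R 4.3.3) on log2(value + 1) with a trended prior, ~ genotype, with Benjamini-Hochberg adjustment over all genes. Fold changes are on that scale and understate those of low genes. Python (3.11.15) gave exact tests, and permutation tests of relations over 10 mice with 100000 resamples. The named genes were Arid1b, the receptors, pathway genes with an unadjusted p under 0.05 or the smallest p of their list, markers bearing on a receptor, and the 2 genes most correlated with each receptor. Members and lists were chosen with earlier results of these data known. Scripts were tested on simulated data. The replicate numbers of HT and WT mice were not treated as pairs in the main fit. Of the choroid plexus list 5 of 9 genes and of the serotonergic neuron list 3 of 5 were in the table, so no score of either was used. One marker of the cortical glutamatergic list is not reported here and was left out of its score.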

Additional observations from a re-analysis of the deposited data

Results flagged for a closer look

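Among 78 groups of 5 mice examined (Arid1b, 12 receptors, marker scores, class shares and named pathway genes), none had a sample far enough from the others to pass Dixon's criterion of 0.71, where chance passes about 1 in 20 groups. Single marker genes were not among these groups. HT mouse 2 had the lowest Htr1b, Htr2a, Htr5a and Htr7 values and the highest Htr1d and Htr3a values of all 10 mice.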

How the results depend on the processing

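No receptor and no pathway gene passed an adjusted p of 0.05 in any of 23 other fits (other pseudocounts, filters, scalings, weights, covariates, a relaxed threshold of 0.1 and each mouse left out). The smallest adjusted p of a receptor over these fits was 0.429, Arid1b stayed lower in HT, and 3 to 4 genes were called. In 5 of these fits the difference itself could not move (filters, trend, block and threshold). Of 216 receptor differences recomputed in the other 18, 208 kept their sign. The sign changed for Htr4 with quantile normalisation (-0.022), and for Htr2a (0.016) with the glutamatergic score as a covariate. With each mouse left out in turn, the log2 difference ran from -0.14 to 0.035 for Htr2a (0.035 without HT mouse 2), from -0.09 to 0.023 for Htr7 (0.023 without HT mouse 2) and from -0.15 to 0.23 for Htr4. The sign held for the others, from 0.03 to 0.11 for Htr1a, -0.15 to -0.03 for Htr1b, 0.34 to 0.74 for Htr1d, -0.26 to -0.13 for Htr1f, 0.02 to 0.25 for Htr2c, -0.25 to -0.06 for Htr3a and -0.16 to -0.07 for Htr5a. The order of the 12 length-scaled levels kept 7 places with the longest transcript and 3 with the median transcript, since annotated lengths differ. Of the relations with the 5 marker scores, 0 passed in the main computation and 0 to 1 with a mouse left out (Htr5a with the astrocyte score, adjusted permutation p = 0.000551 without WT mouse 4), while 2 passed with the glutamatergic and olfactory bulb lists instead, a choice made after seeing the data, and 0 of these without HT mouse 2. In the fit with a replicate block, 3 genes and 0 receptors passed. Deviations from the genotype means correlated over 0.1 in 1 of 5 pairs of same-numbered mice. The mean correlation was 0.038 for same-numbered pairs and -0.0091 for other pairs. Of the 5 HT mice, 3 correlated best with the WT mouse of their own number. The main fit did not treat the numbers as pairs, and a shared origin of same-numbered mice was not tested. Depth is unknown, so the counting error behind a value cannot be given.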
